A study of Mus musculus with 10 samples.

Results

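The genes described here control how much insulin-like growth factor (IGF) is free to reach its receptor outside the cell: the IGF binding protein genes Igfbp2, Igfbp3, Igfbp4, Igfbp5, Igfbp6 and Igfbp7, the pappalysin protease genes Pappa and Pappa2, and the stanniocalcin genes Stc1 and Stc2. They were chosen by symbol, as the 10 members of this extracellular system that were matched through the GENCODE mouse annotation to a row of the count table, out of 18381 genes in all. All 10 had enough counts to be tested. The samples were first lower molars of wild type C57BL/6JOlaHsd mouse embryos at embryonic day 14 (E14), cultured in hanging drops for 6 h. From each of 5 embryos (numbered 1, 2, 3, 4 and 6), one tooth received mouse recombinant IGF1 at 750 ng per ml in PBS with BSA (the IGF1 group) and its partner received the same volume of PBS with BSA alone (the control group), with left and right sides balanced. Each of the 10 libraries was made from 1 whole tooth, so epithelium, mesenchyme and any attached tissue were measured together.

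IGF1 and IGF2 act through the IGF1 receptor, and outside the cell most of the ligand is held by high-affinity binding proteins that keep it from the receptor or carry it to other sites. Pappalysins are secreted metalloproteases that cut certain binding proteins and so release the ligand: Pappa cuts chiefly Igfbp4, and also Igfbp5, while Pappa2 cuts Igfbp3 and Igfbp5. The stanniocalcins bind pappalysins and inhibit them, so that ligand, binding protein, protease and protease inhibitor form a chain. The IGF system is known as a promoter of growth in embryonic organs, and its binding proteins are made in many embryonic mesenchymes.

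With IGF1, transcripts of binding proteins, proteases and protease inhibitors were changed. The binding protein genes Igfbp5 and Igfbp2 and both stanniocalcin genes rose, both pappalysin genes fell, and Igfbp3, Igfbp4, Igfbp6 and Igfbp7 did not pass the test. Calls were made from edgeR's quasi-likelihood model, fitted across the whole table with embryo as a block, where the p-value adjusted over all tested genes was below 0.05. Of the 10 members, 6 were called, where 11.5% of all 14504 genes tested were. Of these, 4 were called higher, where 6.72% of all genes were, and 2 were called lower, against 4.76% of all genes. The levels of both groups, in CPM (counts scaled to a library of 1000000), did not overlap for 3 members, where this held for 7.25% of all genes; IGF1 was the higher group in all 3, and 0 members had every IGF1 tooth below every control tooth, against 3.03% of all genes. The median log2 fold change of the members was 0.01 and that of all genes tested was 0.00, and the members moved in both directions. The plot of log2 fold changes shows the spread over the members.

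**Figure D1:**
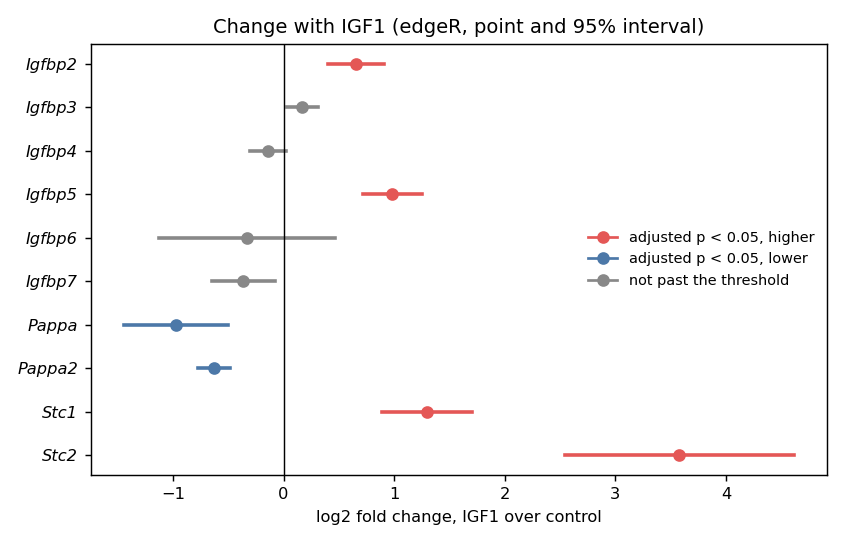
Log2 fold change of each member, IGF1 over control (horizontal axis), with the 95% interval from edgeR's quasi-likelihood fit; colour marks genes called higher, called lower or not past the threshold. Stc2 stands at 3.58, Stc1 at 1.29, Igfbp5 at 0.98 and Igfbp2 at 0.66, while Pappa and Pappa2 stand at -0.97 and -0.63.

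Promoter sequences were read for the members that were called and have an entry in the RefSeq promoter table (build GRCm38.p6), which holds 8 of the 10 members and neither Pappa nor Stc1. They are shown because these genes were called, and because genes of the response to low oxygen, whose factor HIF binds ACGTG or GCGTG, moved in the same teeth (values are given with the stanniocalcins). Each window runs from 250 bases before to 50 bases after a RefSeq gene start, is written 5′ to 3′ on the gene's own strand, and has in capitals every ACGTG or GCGTG on either strand. A CACGTG holds the motif on both strands and was counted as 2 overlapping matches.

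Stc2, chr11:31370012-31370311, minus strand: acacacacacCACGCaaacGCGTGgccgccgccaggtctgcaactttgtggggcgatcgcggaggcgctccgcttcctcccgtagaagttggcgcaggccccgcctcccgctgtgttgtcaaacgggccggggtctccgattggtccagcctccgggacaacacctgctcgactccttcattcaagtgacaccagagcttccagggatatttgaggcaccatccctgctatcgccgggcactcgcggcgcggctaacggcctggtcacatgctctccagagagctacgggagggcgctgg
Igfbp2, chr1:72824230-72824529, plus strand: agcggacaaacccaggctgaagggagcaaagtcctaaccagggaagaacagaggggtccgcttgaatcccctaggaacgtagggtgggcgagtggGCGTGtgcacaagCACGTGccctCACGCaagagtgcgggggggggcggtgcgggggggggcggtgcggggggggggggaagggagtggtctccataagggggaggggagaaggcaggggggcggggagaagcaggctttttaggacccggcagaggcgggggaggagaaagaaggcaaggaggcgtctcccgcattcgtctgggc
Igfbp5, chr1:72874816-72875115, minus strand: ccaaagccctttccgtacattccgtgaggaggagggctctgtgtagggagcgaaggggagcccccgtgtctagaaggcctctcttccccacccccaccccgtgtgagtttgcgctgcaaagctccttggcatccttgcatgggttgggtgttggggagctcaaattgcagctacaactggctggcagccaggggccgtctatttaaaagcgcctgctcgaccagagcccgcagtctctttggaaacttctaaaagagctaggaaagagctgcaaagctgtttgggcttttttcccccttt
Pappa2, chr1:158958126-158958425, minus strand: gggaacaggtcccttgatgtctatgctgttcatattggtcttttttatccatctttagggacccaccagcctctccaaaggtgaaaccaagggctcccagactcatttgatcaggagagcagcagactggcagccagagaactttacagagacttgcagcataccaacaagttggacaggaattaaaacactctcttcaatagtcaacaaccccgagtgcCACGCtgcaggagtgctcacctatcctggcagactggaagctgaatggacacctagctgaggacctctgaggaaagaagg

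The Stc2 window holds 2 matches, at -240 and -231 from the start, the Igfbp2 window holds 4 matches between -155 and -132, the Pappa2 window holds 1 match at -30 and the Igfbp5 window holds 0. Over the 8 members with a window, 5 had at least 1 match. These include Igfbp3 and Igfbp7, which were not called, had 2 matches each and are not shown. Of all 32851 windows of 300 bases, 43.8% had a match, a share counted by window and not by gene. The FoxO motif GTAAACA and the ATF4 motif TGATGNAA, searched on both strands, had 0 matches in the members' windows, against 3.65% and 3.97% of all windows. A match in this window is a description of the letters and says nothing of binding. The Pappa2 window starts at a RefSeq start that lies inside the longer GENCODE gene, and Igfbp2 has a further RefSeq window, with 1 match at -3, that is not shown.

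Total counts per library ran from 2845773 to 8403151 in the control group and from 3456634 to 8763113 in the IGF1 group, and both teeth of embryo 1 had the lowest totals of their groups. The library sizes behind CPM were scaled by TMM factors, which lay between 0.972 and 1.03. The labelled tissue was checked against marker lists for dental epithelium and dental mesenchyme. All 15 epithelial and all 15 mesenchymal markers have a row in the table, with summed levels of 2408 to 3716 CPM and 6918 to 9649 CPM over the 10 teeth.

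Igfbp5 (ENSMUSG00000026185, GRCm38 chromosome 1, 72857932 to 72874884, minus strand) encodes a binding protein that is held in the extracellular matrix. It stood at 815, 1118, 839, 1179 and 686 CPM in the control teeth of embryos 1, 2, 3, 4 and 6. In their IGF1 teeth it stood at 1859, 1602, 2072, 1831 and 1643 CPM. Every IGF1 tooth was above every control tooth, so the groups did not overlap, as was the case with IGF1 higher for 4.21% of all genes tested. The mean rose from 928 ± 211 CPM (SD, n = 5) to 1801 ± 189 CPM, a fold change of 1.97 (log2 0.98, SE 0.12, edgeR adjusted p = 0.000645). Relative to its mean, the spread of the IGF1 teeth was smaller, with a coefficient of variation of 10.5% against 22.8% in the control teeth. The SDs themselves were close, and the difference in spread was not tested. In bulk teeth such as these, more transcripts per cell and more cells that express the gene cannot be told apart.

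Igfbp2 (ENSMUSG00000039323, chromosome 1, 72824503 to 72852474, plus strand) encodes a binding protein that is widespread in embryonic tissues. The control teeth of embryos 1, 2, 3, 4 and 6 had 111, 82.0, 95.6, 103 and 99.4 CPM. Their IGF1 teeth had 155, 170, 194, 129 and 128 CPM. Here too the groups did not overlap, and the teeth of embryos 2 and 3 were the highest of the IGF1 group although they were the lowest of the control group. The fold change was 1.57 (log2 0.66, SE 0.12, edgeR adjusted p = 0.00472).

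Both risen binding protein genes are neighbours. Igfbp2 and Igfbp5 lie on chromosome 1 with their 3′ ends facing each other, 5457 bases apart, and 0 protein coding genes are annotated between them. Igfbp3 has a like neighbour in Igfbp1 on chromosome 11, again with the 3′ ends facing each other and 3539 bases apart. Igfbp1, the binding protein gene best known as a target of insulin and FoxO factors in liver, has no row in the table, in which the counts of each gene sum to at least 10, and was not analysed here.

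**Figure D2:**
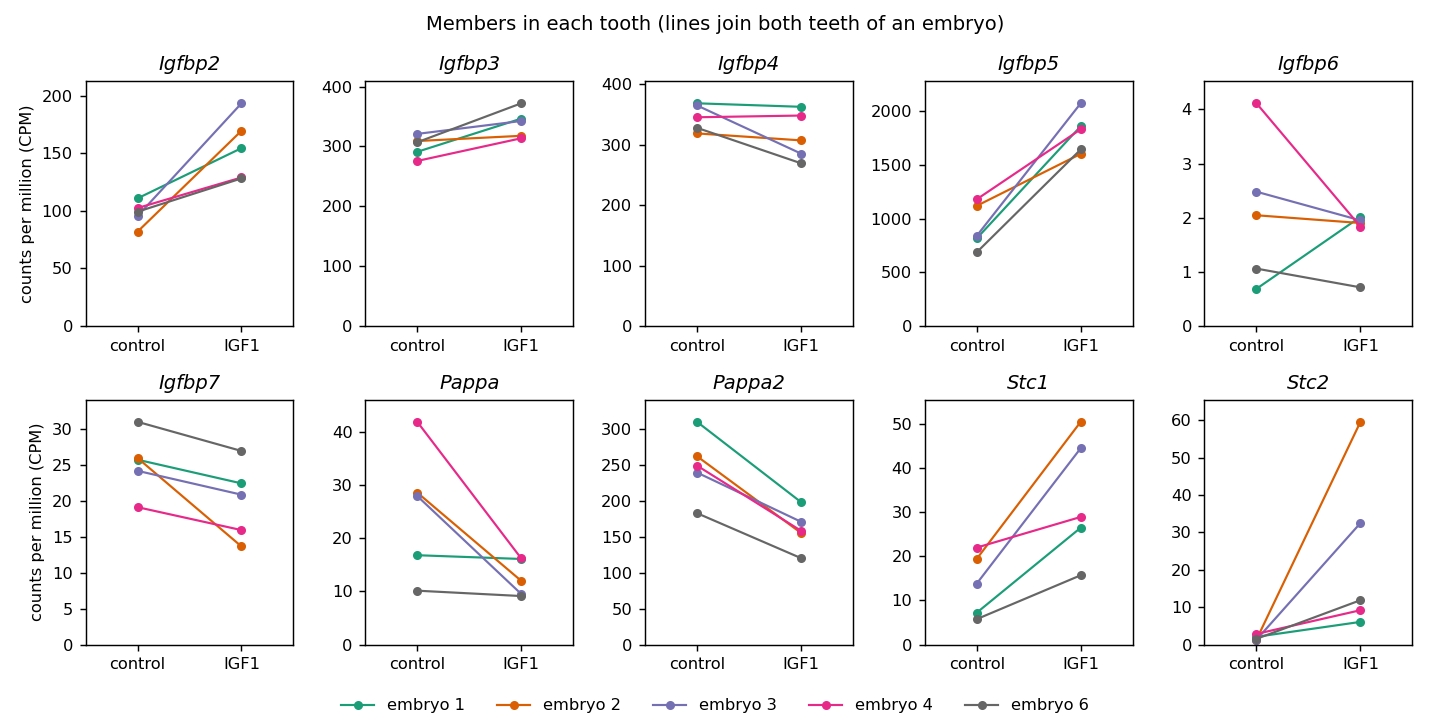
CPM (vertical axis, from 0 in each panel) of each member in the control and the IGF1 tooth; a line joins both teeth of an embryo, and colours stand for embryos 1, 2, 3, 4 and 6. Igfbp2, Igfbp3, Igfbp5, Stc1 and Stc2 were higher and Pappa, Pappa2 and Igfbp7 were lower in the IGF1 tooth of all 5 embryos, with Igfbp3 and Igfbp7 not past the threshold.

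The remaining binding protein genes were not called. Igfbp3 (ENSMUSG00000020427, chromosome 11, 7206086 to 7213923, minus strand), which encodes the main carrier of IGF in adult serum, had 291, 309, 321, 276 and 307 CPM in the control teeth of embryos 1, 2, 3, 4 and 6. It had 346, 318, 342, 314 and 372 CPM in their IGF1 teeth. Its value was higher with IGF1 in 5 of 5 embryos, but by a fold of only 1.12 (95% interval 1.02 to 1.24, edgeR adjusted p = 0.120). The groups overlapped.

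Igfbp4 (ENSMUSG00000017493, chromosome 11, 99041244 to 99054392, plus strand), the substrate of Pappa, ran from 319 to 369 CPM in the control teeth and from 269 to 363 CPM in the IGF1 teeth. Its fold was 0.907 (95% interval 0.810 to 1.01, edgeR adjusted p = 0.257), and 4 of 5 embryos had the lower value with IGF1. Igfbp7 (ENSMUSG00000036256, chromosome 5, 77349240 to 77408041, minus strand), a relative of the family with low affinity for IGF, ran from 19.1 to 31.0 CPM and from 13.7 to 27.0 CPM. It was lower in the IGF1 tooth of 5 of 5 embryos, with a fold of 0.778 (95% interval 0.640 to 0.946), but its adjusted p of 0.0956 (edgeR) missed the threshold. Igfbp7 overlaps Polr2b on the other strand. Strand use in counting is not given in the sources used here, so reads of that pair may not be fully told apart. The antisense gene Gm34648, on the same strand as Polr2b, also overlaps Igfbp7 and was not analysed here.

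Igfbp6 (ENSMUSG00000023046, chromosome 15, 102144362 to 102149511, plus strand), which prefers IGF2 over IGF1, was close to the limit of what these libraries can show. It had 2, 14, 21, 29 and 7 counts in the control teeth and 7, 16, 17, 13 and 5 counts in the IGF1 teeth of embryos 1, 2, 3, 4 and 6. Its fold was 0.793 with a 95% interval from 0.457 to 1.38 (edgeR adjusted p = 0.609), which leaves room for a change of either sign. No difference was detectable at this depth.

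To compare levels between genes, CPM were divided by the length of the merged exons in kilobases. Among the control teeth, Igfbp5 was the highest member with 154 ± 35.2 CPM per kb (SD, n = 5), followed by Igfbp3 with 96.1 ± 5.62, Igfbp4 with 78.2 ± 4.98 and Igfbp2 with 53.1 ± 5.77. With merged exons as the length, these 4 genes did not overlap in their ranges, and in each of the 5 control teeth they stood in that order. Both statements depend on the length used, as described in the closing section. Pappa2 (24.2 ± 4.45 CPM per kb) and Igfbp7 (20.9 ± 3.53) came next and overlapped each other. Stc1 (3.25 ± 1.71), Pappa (2.28 ± 1.11) and Igfbp6 (1.87 ± 1.21) followed, with ranges that overlapped between Stc1 and Pappa and between Pappa and Igfbp6, although Stc1 was above Pappa in 5 of 5 control teeth. Stc2 was the lowest, with 0.349 ± 0.126 CPM per kb, and its range lay below that of Igfbp6.

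In the IGF1 teeth the order differed. Igfbp2 (84.0 ± 15.0 CPM per kb) stood above Igfbp4 (71.3 ± 9.07) in 4 of 5 teeth, with overlapping ranges. By mean, Stc2 (4.60 ± 4.35) came above Igfbp6 (1.51 ± 0.491) and Igfbp6 above Pappa (1.14 ± 0.312), each in 4 of 5 teeth and with overlapping ranges. The ranges of Pappa2 and Igfbp7 overlapped in both groups, with Pappa2 above Igfbp7 in 4 of 5 control teeth and Igfbp7 above Pappa2 in 2 of 5 IGF1 teeth.

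**Figure D3:**
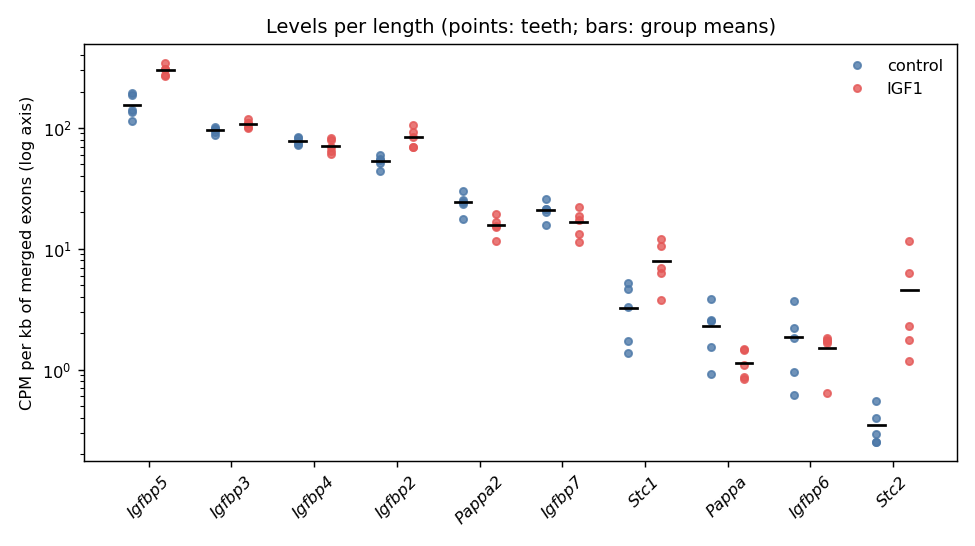
Level of each member per length, in CPM per kilobase of merged exons (log axis); points are teeth, black bars are group means, blue is control and red is IGF1, and genes are ordered by the control mean. Igfbp5 leads both groups, and Stc2 moves from 0.349 to 4.60 CPM per kb.

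On this scale per length, the 6 binding protein transcripts together came to 405 ± 27.7 CPM per kb (SD, n = 5) in the control teeth and 581 ± 42.8 CPM per kb in the IGF1 teeth. The sum was higher in the IGF1 tooth of each embryo, by a ratio of 1.54, 1.28, 1.61, 1.30 and 1.49 in embryos 1, 2, 3, 4 and 6. Igfbp5 made up 37.9% ± 6.12 of the sum in the control teeth and 51.5% ± 2.05 in the IGF1 teeth, and its lowest share with IGF1 (49.1%) was above its highest control share (44.9%). Igfbp2, whose own level rose, had a share of 13.2% ± 1.88 and 14.4% ± 2.10. The share of Igfbp3 was 23.9% ± 2.55 and 18.7% ± 1.85, that of Igfbp4 19.4% ± 1.85 and 12.3% ± 1.63, and that of Igfbp7 5.22% ± 1.21 and 2.85% ± 0.787. Since shares sum to a fixed total, the smaller shares of Igfbp3 and Igfbp4 go with the larger share of Igfbp5 and say nothing by themselves of their own level.

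**Figure D4:**
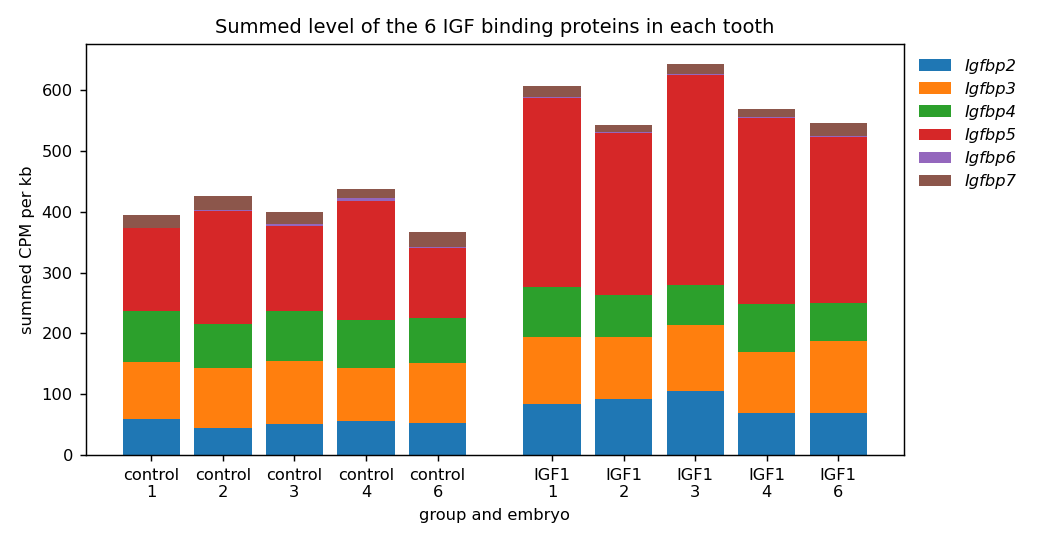
Summed level of the binding protein transcripts in each tooth, in CPM per kb of merged exons, stacked by gene, with control teeth on the left and IGF1 teeth on the right, each labelled by embryo. The sums lie between 367 and 438 in the control teeth and between 543 and 643 in the IGF1 teeth, and the Igfbp5 part is the largest in both groups.

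Pappa2 (ENSMUSG00000073530, chromosome 1, 158711727 to 158980490, minus strand) was the more abundant pappalysin transcript of these molars per length. It had 310, 262, 240, 249 and 183 CPM in the control teeth of embryos 1, 2, 3, 4 and 6. It had 198, 155, 171, 159 and 120 CPM in their IGF1 teeth. The groups overlapped slightly, because the control tooth of embryo 6 was below the IGF1 tooth of embryo 1, yet within each embryo the IGF1 tooth was the lower. The fall was the most even of the 6 called members over the embryos, with log2 differences from -0.75 to -0.49 (SD 0.10). The fold was 0.647 (log2 -0.63, SE 0.06, edgeR adjusted p = 0.000195). Its annotation overlaps the noncoding gene 1600012P17Rik on the same strand, which was not analysed here.

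Pappa (ENSMUSG00000028370, chromosome 4, 65124174 to 65357509, plus strand) had 16.8, 28.6, 28.0, 42.0 and 10.1 CPM in the control teeth of embryos 1, 2, 3, 4 and 6. It had 16.1, 12.0, 9.53, 16.2 and 9.14 CPM in their IGF1 teeth. The control teeth of embryos 1 and 6 were close to or within the range of the IGF1 teeth, and in those embryos the difference was -0.06 and -0.15 on the log2 scale, against -1.23, -1.53 and -1.35 in embryos 2, 3 and 4. The groups therefore overlapped. Over all embryos the fold was 0.511 (log2 -0.97, SE 0.21, edgeR adjusted p = 0.0151). The call was lost without embryo 4 (fold 0.560, adjusted p = 0.0788) and without the embryo block (fold 0.488, adjusted p = 0.0680), and over all alternatives edgeR, limma and DESeq2 gave adjusted p-values from 0.00140 to 0.0788.

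Stc2 (ENSMUSG00000020303, chromosome 11, 31357307 to 31370074, minus strand), which inhibits Pappa by binding it covalently, had the largest fold change of the members. It was near the floor in the control teeth, with 6, 9, 11, 20 and 10 counts, or 2.06, 1.31, 1.30, 2.84 and 1.51 CPM, in embryos 1, 2, 3, 4 and 6. Their IGF1 teeth had 21, 501, 283, 65 and 83 counts, or 6.05, 59.6, 32.5, 9.17 and 11.8 CPM. The groups did not overlap, and the IGF1 teeth of embryos 2 and 3 were far above those of embryos 1, 4 and 6. The fold was 11.9 (95% interval 5.82 to 24.5, log2 3.58, SE 0.47, edgeR adjusted p = 0.000886). The size rests on single embryos more than the call does: it was 7.51 without embryo 2 and 18.1 without embryo 4, both past the threshold.

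Stc1 (ENSMUSG00000014813, chromosome 14, 69029238 to 69041804, plus strand), an inhibitor of both pappalysins, had 7.21, 19.4, 13.8, 22.0 and 5.76 CPM in the control teeth of embryos 1, 2, 3, 4 and 6. It had 26.5, 50.5, 44.5, 28.9 and 15.7 CPM in their IGF1 teeth. The IGF1 tooth of embryo 6 was below the control teeth of embryos 2 and 4, so the groups overlapped, but all 5 embryos had the higher value with IGF1. The fold was 2.45 (log2 1.29, SE 0.19, edgeR adjusted p = 0.00151). Without the embryo block the fold was 2.39 and the adjusted p was 0.0533 (range over the alternatives 2.39e-08 to 0.0533 from edgeR, limma and DESeq2). The annotation has an antisense gene, Gm41192, over Stc1, which was not analysed here.

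Stc1 and Stc2 are also known as genes that respond to low oxygen, and Stc2 as a gene that responds to ATF4. A list of 20 hypoxia response genes, none of them a member, was read beside them. It was chosen with earlier results of these data known. Of the 19 tested, 17 were called higher and 0 lower, where 6.72% of all genes tested were called higher. The median log2 fold change of the list was 1.54. Its summed level was 1501 to 2325 CPM in the control teeth and 2852 to 9308 CPM in the IGF1 teeth. The median difference of the list was 0.62, 2.37, 2.27, 0.82 and 0.82 in embryos 1, 2, 3, 4 and 6, and the difference of Stc2 in the same embryos was 1.43, 5.21, 4.36, 1.59 and 2.74 (log2 CPM with a prior count of 2). Both were largest in embryos 2 and 3. Igfbp2 had its largest differences in these embryos too (1.05 and 1.02, against 0.33 to 0.48 in the others). Stc1 and Igfbp5 did not follow that order, with 1.83, 1.36, 1.67, 0.39 and 1.40 for Stc1 and 1.19, 0.52, 1.30, 0.63 and 1.26 for Igfbp5. A list of the ATF4 response was chosen in the same way. Of its 14 tested genes, 8 were called higher and 0 lower, against the same 6.72% of all genes (median log2 fold change 0.90, sums of 463 to 498 and 718 to 1404 CPM). The median difference of that list was 0.68, 1.57, 0.83, 0.63 and 0.69 in embryos 1, 2, 3, 4 and 6, so it too was largest in embryos 2 and 3. The part of low oxygen or of ATF4 in the stanniocalcin values was not tested.

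**Figure D5:**
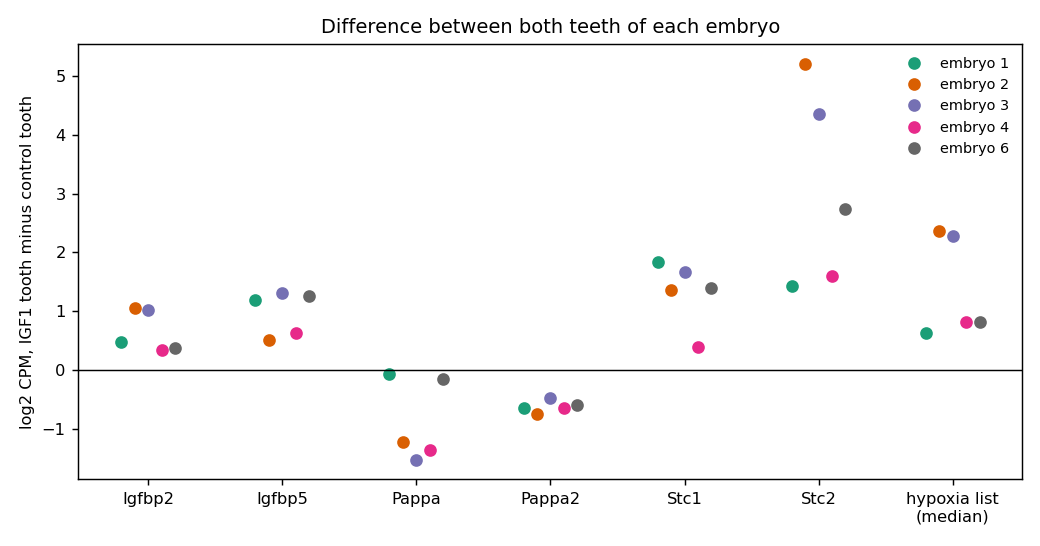
Difference in log2 CPM (prior count 2) between the IGF1 tooth and the control tooth of each embryo, for the 6 members that were called, with the median difference of the hypoxia response list at the right. Stc2 ranges from 1.43 to 5.21 and Pappa from -1.53 to -0.06, while Pappa2 stays between -0.75 and -0.49.

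The control teeth differed among themselves, and 3 of the called members shared an order. Igfbp5, Pappa and Stc1 each ranked the control teeth of the embryos in the order 4, 2, 3, 1 and 6, from highest to lowest. The other called members had other orders, namely 1, 4, 6, 3 and 2 for Igfbp2, 1, 2, 4, 3 and 6 for Pappa2 and 4, 1, 6, 2 and 3 for Stc2. The summed level of the 15 dental mesenchyme markers ranked the control teeth in the order of Igfbp5, Pappa and Stc1, at 9649, 9265, 8941, 8882 and 7552 CPM, and that of the 15 dental epithelium markers ranked them in the order of Igfbp2, at 3655, 3275, 3062, 2746 and 2408 CPM. Pappa stood at 42.0 CPM in embryo 4 and 10.1 CPM in embryo 6. The summed level of the bone and cartilage markers was 552, 408, 273, 258 and 138 CPM in the control teeth of embryos 2, 4, 3, 1 and 6, and that of the skeletal muscle markers was 105, 74.5, 72.1, 59.2 and 26.2 CPM in those of embryos 4, 1, 3, 2 and 6. The part of these tissues in the spread of the members was not tested. Igfbp3 and Igfbp4 varied least over the control teeth, with coefficients of variation of 5.84% and 6.37%, against 48.7% for Pappa and 52.7% for Stc1. With IGF1 the order shared by Igfbp5, Pappa and Stc1 was not kept. Pappa ranked the IGF1 teeth 4, 1, 2, 3 and 6 and Stc1 ranked them 2, 3, 4, 1 and 6. Igfbp5 ranked them 3, 1, 4, 6 and 2, and the mesenchyme sum 2, 4, 1, 6 and 3. The epithelium sum ranked the IGF1 teeth 6, 1, 3, 4 and 2, and Igfbp2 ranked them 3, 2, 1, 4 and 6.

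Markers of other cell types in the tooth were read beside these results. Over all genes tested, 6.72% were called higher and 4.76% lower. With IGF1, 0 of 14 tested mesenchymal markers were called higher and 3 lower (median log2 fold change -0.12), and their summed level was 7552 to 9649 CPM in the control teeth and 6918 to 9468 CPM in the IGF1 teeth. Of 15 epithelial markers 1 was called higher and 0 lower (median 0.03, sums of 2408 to 3655 and 2705 to 3716 CPM). Endothelial markers had 0 higher and 2 lower of 10 (median -0.25, sums of 434 to 490 and 348 to 458 CPM), and macrophage markers 0 higher and 1 lower of 9 tested (median -0.24, sums of 76.2 to 106 and 66.0 to 95.3 CPM). Erythroid genes had 0 higher and 5 lower of 7 tested (median -0.52, sums of 851 to 1428 and 606 to 1113 CPM). Glia had 0 called of 2 tested markers (sums of 74.9 to 97.2 and 73.8 to 82.2 CPM), skeletal muscle 0 called of 3 (sums of 26.2 to 105 and 14.6 to 136 CPM), and bone and cartilage 1 higher and 0 lower of 7 (sums of 138 to 552 and 140 to 1008 CPM). Of the listed markers, 1 of skeletal muscle and 1 of cartilage have no row in the table. The part of a shift in cell types in the members' values was not tested.

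Upstream of the members stand the ligands, and downstream the receptors and their substrates. Of 7 such genes, all tested, 0 were called higher and 4 lower with IGF1 (median log2 fold change -0.50), where 4.76% of all genes were called lower. The genes that fell were Igf1r, the receptor for IGF1 (fold 0.624, edgeR adjusted p = 0.000181), Insr, the insulin receptor (0.733, adjusted p = 0.00248), and the substrates Irs1 (0.707, adjusted p = 0.000922) and Irs2 (0.513, adjusted p = 3.18e-05). Each of the 4 was lower in 5 of 5 embryos. The ligand genes were not called: Igf2 stood at 1198 ± 201 CPM (SD, n = 5) in the control teeth and 1090 ± 334 CPM with IGF1 (edgeR adjusted p = 0.282), and Igf1 at 103 ± 62.0 and 72.9 ± 37.4 CPM (edgeR adjusted p = 0.261). Igf2r, which takes up IGF2 for breakdown, had a fold of 0.923 (edgeR adjusted p = 0.440).

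A further list held 14 genes of other IGF binding proteins and of proteases that cut binding proteins. Of the 10 tested, 1 was called higher and 2 lower, where 6.72% of all genes were called higher and 4.76% lower. Esm1, an endothelial proteoglycan gene, rose from 1.99 ± 0.711 to 4.75 ± 1.06 CPM (SD, n = 5; fold 2.39, edgeR adjusted p = 0.0146). Ctgf fell with a fold of 0.738 (edgeR adjusted p = 0.0264) and Cyr61 with a fold of 0.745 (edgeR adjusted p = 0.0237), both matrix-associated proteins with a domain like that of the binding proteins. The proteases that cut binding proteins did not pass the test, namely Htra1 (fold 1.02, edgeR adjusted p = 0.945), Htra3 (0.706, 0.115), Adam12 (0.926, 0.474) and Adamts1 (0.912, 0.496). Igfals, which encodes the partner of Igfbp3 and Igfbp5 in serum complexes, was not analysed here, and Igfbpl1 and Wisp2 were too low to test. Of 12 tested genes on a list of FoxO targets, a group that IGF signalling is known to repress and that shares Irs2 and Insr with the receptor list, 0 were called higher and 6 lower (median -0.43).

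For each called member, the genes with the most similar profile were sought among all genes tested, by Pearson's r of log2 CPM over the 10 teeth. The nearest were Brip1 (r = 0.975) and Tmem189 (0.960) for Igfbp5, and Cntnap1 (0.963) and Ccdc187 (0.961) for Igfbp2. For the pappalysins they were Sox5 (0.986) and Afap1l2 (0.946) for Pappa2, and Laptm5 (0.971) and Fam196a (0.962) for Pappa. For the stanniocalcins they were Map2k1 (0.987) and Hk2 (0.982) for Stc2, and Apln (0.955) and Me1 (0.950) for Stc1. These values describe the likeness of profiles in teeth that share embryos and a treatment, and each pair is the extreme of all genes tested.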

How the data were processed

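RNA was sequenced from 10 single molars, 5 with IGF1 and 5 with vehicle (Ovation Mouse RNAseq System). The authors deposited estimated counts per gene; the submitters' processing notes name FastQC 0.11.8, Trimmomatic 0.39, Salmon 0.99.0, DESeq2 and GRCm38. The transcript set and strand setting are not given in the sources used here. All values are whole numbers, so rounding changed none. Symbols and lengths came from GENCODE release 21 (GRCm38), which holds 18287 of the 18381 identifiers.

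Genes passing edgeR's filterByExpr were fitted with TMM scaling, embryo as a block and the quasi-likelihood test, and p-values were adjusted by Benjamini and Hochberg over 14504 genes. Standard errors were derived from the F statistic. Teeth with the same number come from the same embryo, per the labels; residuals about each group's mean had a correlation between both teeth of 0.319, 0.208, -0.0389, 0.170 and 0.313, against a median of -0.0463 between embryos. Replicate libraries were further apart than counting error allows (chi-square per degree of freedom 4.68 to 19.4). The fit was tested on simulated data. Alternatives were other scaling, filters and tests (DESeq2, limma-voom), no block, leaving out each embryo, and another gene length.

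Genes named with values were all members, genes of the IGF lists, and the 2 nearest profiles of each called member. Genes that overlap a member are named without values. Members and lists were chosen with earlier results of these data known. The software was Python 3.11.15 and R 4.3.3 with DESeq2 1.42.0, edgeR 4.0.16 and limma 3.58.1.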

Additional observations from a re-analysis of the deposited data

Results flagged for a closer look

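Among the members, 20 groups of 5 teeth were checked for a tooth that stands far from the others, of which chance would mark about 1. Only Igfbp6 had one: in embryo 6, the tooth given IGF1 had 0.714 CPM against 1.84 to 2.02 CPM in the other IGF1 teeth (gap over range 0.861). The value rests on 5 counts.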

How the results depend on the processing

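Of 108 values of the members' log2 fold changes with an adjusted p under the alternatives, 105 kept their direction and side of the threshold, 0 reversed and 3 lost the call with the same direction, namely Pappa and Stc1 without the replicate block and Pappa without embryo 4. The members called numbered 4 without the block and 5 without embryo 4, in place of 6, and 6 under each other alternative. Over all genes, 887 were called without the replicate block in place of 1666; when an embryo was left out, from 986 (without embryo 4) to 1602 (without embryo 3) were called, and without embryo 6 994, with fewer samples in each such fit. The cause of the other changes was not tested. Counting at least 1 CPM in every tooth of a group removed Igfbp6, which then had no value, and DESeq2 gave Igfbp6 a log2 fold change of -0.26 with no adjusted p. With the length of the longest transcript, control levels moved by more than 1 SD for Igfbp2 (75.0 CPM per kb), Igfbp3 (124) and Igfbp4 (90.1). The order of the control means was the same, and with IGF1 the means of Pappa2 and Igfbp7 changed places. The order in single teeth was not kept. In the control tooth of embryo 6, Igfbp3 (307 CPM over 2421 bases) then stood above Igfbp5 (686 CPM over 6006 bases). The control ranges of Igfbp5 and Igfbp3 then overlapped, as did those of Igfbp4 and Igfbp2. Counts were lowest for Igfbp6 and, in the control group, for Stc2. The shallow control library of embryo 1 had 2 counts of Igfbp6 and 6 of Stc2. With IGF1, the lowest Igfbp6 count was 5, in embryo 6. The titles of all samples share a code that begins with OLA, which the labels do not explain. Nothing in the labels says whether the embryos shared a litter.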
